A study of Mus musculus with 12 samples.

Results

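Of 10521 Jmjd2c peaks in mouse leukaemic progenitors, 235 covered an annotated end of a transcript. They were chosen by the deposited annotation, which lists the RefSeq features under each peak and marks such a peak with the token TES. That is 2.23% of the list (exact 95% binomial interval 1.96 to 2.53). Most of them lay at a start site too: 205 of the 235 also carried the token TSS, which the files give to a peak with a start site within 1000 bp. A Jmjd2a peak overlapped 131 of the 235 by at least 1 bp.

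Jmjd2a (Kdm4a) and Jmjd2c (Kdm4c) are histone demethylases of the KDM4 family. They act on trimethylated lysine 9 of histone H3, a mark of silenced chromatin, and on trimethylated lysine 36, a mark laid down behind elongating RNA polymerase and found over the body and towards the 3′ end of transcribed genes. Both carry tandem Tudor domains that bind trimethylated lysine 4, the mark of active start sites. A transcript end is where the nascent RNA is cleaved and polyadenylated, or, for microRNAs and small nucleolar RNAs, where the mature RNA or its hairpin is cut out of a longer transcript. In a compact genome region the end of one gene can lie close to the start of the next, so that a single peak spans both.

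The study used MLL-AF9-transformed L-GMP cells, a leukaemic granulocyte-macrophage progenitor line from mice on the C57BL/6 background. MLL-AF9 is an oncogenic fusion of the MLL methyltransferase. All groups carry the genotype Jmjd2a/b/cf/f;Rosa26::CreERT2, that is floxed alleles of the 3 genes and a Cre recombinase that 4-hydroxytamoxifen (OHT) switches on. All were grown in RPMI with 20% FBS and 10 ng/ml IL-3. The Ctrl groups were untreated, and the OHT groups were given 500 nM OHT for 96 h. Chromatin immunoprecipitation followed by sequencing gave 12 libraries in 8 groups: Jmjd2a and Jmjd2c with 1 library in each condition, and H3K9me3 and H3K36me3 with 2. The tables used here hold positions of called peaks and no value per library, so depth is unknown, no replicate check exists, and neither OHT nor the histone marks were analysed here. Peaks are not replicates, and intervals cover counting error only.

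MicroRNA genes made up a large part of the ends found, and their mature products are shown first to name the small RNAs encoded there. Of 71 microRNA genes with an end under these peaks, 65 had 94 mature sequences in the RefSeq table used (build GRCm38.p6, whose primary assembly is that of mm10). The seeds, bases 2 to 8 counted from the 5′ end, which pair with target messenger RNAs, are in capitals. The products of genes under the widest peaks were these.
miR-5130 (chr14:102982608-102982631, minus strand): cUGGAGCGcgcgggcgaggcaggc
miR-7653-5p (chr11:78178827-78178848, plus strand): uAAGGGGCggacagacagacgg
miR-5100 (chr11:60728698-60728718, plus strand): uCGAAUCCcagcggugccucu
miR-7655-5p (chr2:18057846-18057867, plus strand): cGGCCCACggagcuccuaaaga
miR-7672-3p (chr14:26669547-26669567, minus strand): uCGGCUGCcagguucaugugg
miR-191-5p (chr9:108568325-108568347, plus strand): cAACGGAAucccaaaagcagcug
miR-425-5p (chr9:108568789-108568811, plus strand): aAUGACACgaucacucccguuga
Several well-studied microRNAs also lay under these peaks, and those that follow were picked by name after their positions were seen.
let-7i-5p (chr10:122985698-122985719, minus strand): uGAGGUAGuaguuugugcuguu
miR-148a-3p (chr6:51269829-51269850, minus strand): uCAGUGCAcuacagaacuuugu
miR-196b-5p (chr6:52230129-52230150, minus strand): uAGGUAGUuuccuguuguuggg
miR-423-5p (chr11:77078122-77078144, minus strand): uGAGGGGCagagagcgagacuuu
miR-574-3p (chr5:64970364-64970385, plus strand): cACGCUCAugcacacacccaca
miR-330-3p (chr7:19181525-19181547, plus strand): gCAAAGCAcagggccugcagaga
miR-219a-5p (chr17:34025052-34025072, minus strand): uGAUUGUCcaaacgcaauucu
The 94 products had 92 distinct seeds. No like count was made over the 1738 mature sequences of the RefSeq table, so this number cannot be called high or low. The seed of let-7i-5p is carried by 13 mature sequences of the RefSeq table, of which 1 lay under these peaks. A seed was shared by products of separate genes in 2 cases, shown here.
miR-7648-3p (chr15:90224392-90224412, plus strand): aGGGCUGGgcccgggacgcgg
miR-762 (chr7:127708534-127708555, plus strand): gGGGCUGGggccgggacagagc
miR-3091-3p (chr2:180257580-180257601, plus strand): cGGGCCUGaccagucucaagac
miR-2861 (chr2:32712819-32712837, minus strand): gGGGCCUGgcggcgggcgg

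Transcript-end peaks lay at start sites about as often as Jmjd2c peaks in general. The TSS token stood on 87.2% of them (interval 82.3 to 91.2), beside 86.0% of all Jmjd2c peaks. This share depends on what the peaks cover. In 101 of the 235 the peak covered an end and a start of the same gene, so a start was there by definition, and all carried the token. It stood on 87 of 89 peaks over the end of one gene and the start of another. With a gene end and no start under the peak it stood on 11 of 34 (32.4%), and on 6 of 11 with no end placed. A deposited start site lay inside 191 of them (81.3%, 75.7 to 86.1), beside 78.3% of the list. The 30 peaks without the TSS token were 2.04% of the 1468 such Jmjd2c peaks. They lay a median of 6793 bp from the nearest start site (range 1206 to 50964), and the 1438 other Jmjd2c peaks without the token lay a median of 16218.5 bp away. Peaks more than 10 kb from any start site numbered 8 of 235 (3.40%, 1.48 to 6.60), beside 8.60% of the list. The annotation also placed a 3′ untranslated region under 180 of the 235 peaks (76.6%) and under 589 of the 10286 other Jmjd2c peaks (5.73%). This contrast largely follows from the choice of peaks, since the end of a coding transcript lies at its 3′ untranslated region. The token for that region is not limited to coding genes in these files, since it stood on peaks such as that over the telomerase RNA gene Terc.

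Placing gene ends and starts from the RefSeq table under each peak gave 232 gene ends under 224 peaks, and 8 peaks held 2 or more ends. An arrangement here means what the peak covers. In 101 of 235 peaks (43.0%, 36.6 to 49.6) it covered an end and a start of the same gene, called a whole gene here; for Dpm3 and Mtag2 the start was an internal one and the gene reached beyond the peak. The peak spanned the end of one gene and the start of another in 89 (37.9%, 31.6 to 44.4). A gene end alone, with no start under the peak, was found in 34 (14.5%, 10.2 to 19.6). In the remaining 11 no gene end of the RefSeq table could be placed under the peak. The annotated transcript end can differ from that of the gene, or the strand of the gene can be missing. The strand was unknown for 4 genes with an edge under one of the 235 peaks. At 1 of those 11 the files name Hoxa6, Hoxa3, Mira and Hoxaas3 of the Hox A cluster; this peak of 1624 bp covered a start of Hoxa3 and had no Jmjd2a (chr6:52212778-52214401).

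The 89 peaks over an end and another start were nearly all at tandem genes, where both genes are transcribed in the same direction and the end of the first precedes the start of the second. In 85 of the 89 pairs the strands were the same (95.5%, 88.9 to 98.8), and in 83 of these 85 both genes encode proteins. Among all RefSeq gene ends with the nearest other start within 1 kb, that start was on the same strand for 500 of 662 (75.5%). The 89 pairs leave out peaks that cover a whole gene, such as those over long noncoding genes with an opposite-strand neighbour. With those left out, an end and a start on opposite strands can share a peak only where the genes overlap. Where a peak offered several pairs, a same-strand pair was taken first. The 95.5% is therefore largely set by how the pairs were chosen. It is of an unlike set to the 75.5%, and no excess of tandem genes can be read from it. The gap between end and start had a median of 216 bp (quartiles 130 and 358) and ran from an overlap of 125 bp, at Ttc36 and Tmem25, to 1607 bp, at Sec14l2 and Mtfp1. The genes overlapped in 6 pairs, lay 0 to 250 bp apart in 47 and were further apart in 32.

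The widest of these peaks with Jmjd2a spanned the end of Sec14l2 and the start of Mtfp1, a mitochondrial fission gene (2973 bp, chr11:4094604-4097576, minus strand). Its Jmjd2a peak of 1100 bp covered the Mtfp1 start and not the Sec14l2 end. A 2615 bp peak covered the end of Sptbn4, a spectrin gene, and the start of Shkbp1, 367 bp apart, and its 1597 bp Jmjd2a peak covered both. The end of Commd3 and the start of Bmi1, a Polycomb repressor gene needed for self-renewal of blood stem cells, lay 786 bp apart under a 2534 bp peak (chr2:18676018-18678551, plus strand). The Jmjd2a peak there, of 1408 bp, ran from 49 to 1456 bp downstream of the Bmi1 start and covered neither point. At Akap8l and Akap8, neighbouring genes for nuclear anchoring proteins, a 696 bp Jmjd2a peak lay within a 2503 bp Jmjd2c peak and also covered neither.

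Without Jmjd2a, the widest peak lay over the end of Tapbp, which encodes the peptide-loading chaperone tapasin, and the start of Rgl2 (2413 bp, chr17:33928902-33931314). Next came the end of Men1 and the start of the kinase gene Map4k2 (2027 bp, chr19:6340425-6342451), 95 bp apart. Men1 encodes menin, a partner protein of MLL and its fusions. The other 2 named by the same rule were Usp21 and Ppox, an enzyme of haem synthesis (1969 bp, gap 755 bp), and Tonsl and Vps28 (1900 bp, gap 152 bp). Further pairs, picked after their positions were seen, were Rnf31 with the interferon signalling factor Irf9 (1850 bp, gap 310 bp) and Eml3 with the NuRD subunit gene Mta2 (1737 bp, gap 337 bp), both without Jmjd2a. With Jmjd2a lay Atraid and Cad, the pyrimidine synthesis enzyme gene (1407 bp), and Tmem139 and the caspase gene Casp2 (1352 bp).

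Around the downstream start these peaks reached about as far as other Jmjd2c promoter peaks. Their reach was a median of 549 bp upstream of it and 839 bp downstream, beside 510 and 830 bp for 6546 other Jmjd2c peaks over 1 start. Starts of the pairs were taken first from the RefSeq tables, and those of the other peaks from the deposited start sites. In 4 of the pairs no deposited start site lay inside the peak. The longer arm lay downstream in 70 of 85 (82.4%, 72.6 to 89.8), beside 81.0% of the others. The upstream arm took in the end of the preceding gene, except in the 6 pairs whose genes overlap.

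**Figure D1:**
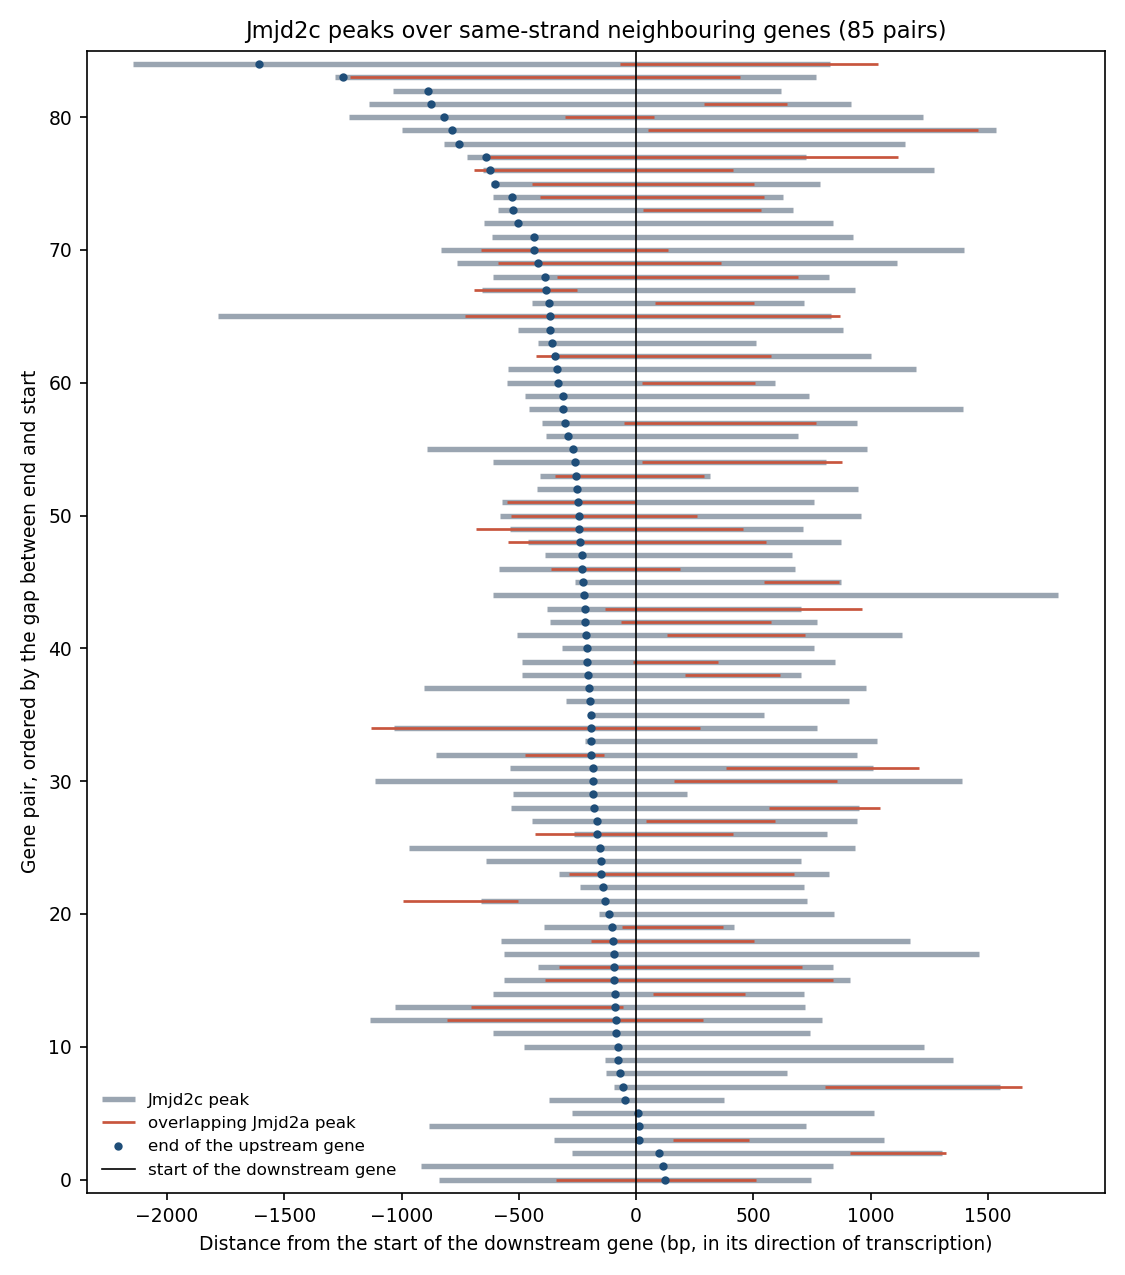
Each row is one of 85 same-strand gene pairs, ordered by gap. The x axis is the distance in bp from the downstream gene's start, grey bars are Jmjd2c peaks, red lines the overlapping Jmjd2a peaks and dots the ends of the upstream genes. Most dots lie close to the start line, at a median gap of 216 bp, and the 33 rows with no red line are pairs without Jmjd2a.

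Jmjd2a overlapped 52 of the 85 same-strand pairs (61.2%, 49.99 to 71.6). Within these 52 its peak covered the downstream start in 30 (57.7%, 43.2 to 71.3), the upstream end in 23 (44.2%, 30.5 to 58.7), both in 19 and neither in 18. In other shared Jmjd2c peaks over 1 start, Jmjd2a covered that start in 3140 of 4227 (74.3%, 72.9 to 75.6). The intervals of the start shares, 57.7% and 74.3%, did not overlap, but the difference was not tested. Here too the starts of the pairs and of the other peaks were placed from different sources, which limits the comparison.

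The ends of the upstream genes could be read as sequence for 30 of the 85 pairs, those whose last 30 bases lie wholly in a promoter window of the downstream gene in the RefSeq table (250 bases before to 50 after a start, which can be another start than the one used for the gap). The polyadenylation hexamer AATAAA or its common variant ATTAAA, searched on the strand of the gene, was present in the last 30 bases of 22 of the 30 (73.3%, 54.1 to 87.7), and AATAAA in 18. The same search found either hexamer in 1.77% of 328510 stretches of 30 bases from all promoter windows. On both strands and over a whole window, 28.2% of 32851 windows hold one. From its first base to the gene end the hexamer lay 19 to 26 bases away (median 22.5). A match is a description of the letters only. Examples follow, with the hexamer in capitals where there is one. They show how the last bases of one gene lie inside the promoter window of the next.
Akap8l before Akap8 (chr17:32321424-32321453, minus strand): tccagcctAATAAAgtgctttcccatctga
Rnasek before 0610010K14Rik (chr11:70238123-70238152, minus strand): ctacAATAAAaagaagcggttccccctaag
Dcst1 before Adam15 (chr3:89350219-89350248, minus strand): ccttcttgcttAATAAAgtgtgatgcacgc
Ccdc28b before Iqcc (chr4:129619274-129619303, minus strand): ctggttggaATTAAAcaaacagaaaagcga
Cog8 before Pdf (chr8:107048709-107048738, minus strand): tttgcagctttAATAAAaccgacaactgtc
Hdac10 before Tubgcp6 (chr15:89123303-89123332, minus strand): gaacAATAAAcatcggccaaacacaacaca
Il17rc before Creld1 (chr6:113483134-113483163, plus strand): ttcctaaccaagtagcactcgtgtatctgt

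The start sites under transcript-end peaks had CpG-rich promoters, as did those under other Jmjd2c peaks. In the 300-base windows the median number of CpG dinucleotides was 22 over the 207 windows whose start lay under a transcript-end peak, 24 over 9297 under other Jmjd2c peaks and 4 over 23347 under none. The ratio of observed to expected CpG was 0.81, 0.82 and 0.25 in the same order. At the end-and-start pairs it was 0.79 (87 windows). Both windows that follow give the 250 bases before a start that lies more than 250 bp from the preceding gene end, with CpG in capitals. They hold 21 CpG before Bmi1 and 7 before Irf9; among the named pairs with such a window the number ran from 6 before Mtfp1, where Jmjd2a overlapped, to 24 before Mta2, where it did not.
Bmi1 (chr2:18676768-18677017, plus strand): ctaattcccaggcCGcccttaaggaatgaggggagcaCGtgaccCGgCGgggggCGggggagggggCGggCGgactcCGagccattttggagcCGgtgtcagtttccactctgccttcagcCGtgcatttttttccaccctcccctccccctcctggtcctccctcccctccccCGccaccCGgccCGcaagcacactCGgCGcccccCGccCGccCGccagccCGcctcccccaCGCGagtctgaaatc
Irf9 (chr14:55603735-55603984, plus strand): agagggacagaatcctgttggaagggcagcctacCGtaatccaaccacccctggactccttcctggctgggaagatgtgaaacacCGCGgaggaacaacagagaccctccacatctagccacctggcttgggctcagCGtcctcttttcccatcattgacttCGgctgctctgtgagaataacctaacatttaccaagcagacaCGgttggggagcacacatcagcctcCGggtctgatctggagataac

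Small RNA genes lay whole under 73 of the 235 peaks (31.1%, 25.2 to 37.4), which held 77 such genes. Of these 70 were microRNA genes, 6 small nucleolar or Cajal body RNA genes and 1 was Terc, the template RNA of telomerase. The microRNA genes sat near the starts of longer genes: 36 lay inside a gene on its own strand, with the hairpin a median of 338.5 bp from a start under the peak, and 6 inside a gene on the opposite strand. A further 17 were not contained in the gene whose start was under the same peak, though some span that start or overlap the gene, as Mir718 does at Irak1. For 11 no other gene of the RefSeq table started under the peak. Where a host gene has several starts, the one under the peak can lie downstream of the hairpin, which gives the lowest offset of -815 bp.

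Mir5130, 47 bp from the start of its host Kctd12, had the widest peak of all 235 (3709 bp, chr14:102979744-102983452), and a 1652 bp Jmjd2a peak covered the hairpin. Mir7653 lay 2141 bp from the start of Tlcd1 under a peak of 3559 bp that also covered the start of Nek8 and had no Jmjd2a. Mir5100 lay 296 bp from the start of Mief2 under a 3288 bp peak, where a 580 bp Jmjd2a peak did not reach the hairpin. A single 2555 bp peak held Mir191 and Mir425, both in the host Dalrd3, at 871 and 1335 bp from its start, together with the start of Ndufaf3. Of its 2 Jmjd2a peaks, 760 and 482 bp wide, none covered Mir191 and 1 covered Mir425. Mir3569 shared a 2512 bp peak with the end of Zbtb32 and the start of Kmt2b, which encodes an MLL family methyltransferase.

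The well-studied genes differed in the same way. Mirlet7i had a 2128 bp peak with no other gene start and no Jmjd2a. Mir148a, also with no other start, had a 1879 bp peak with 2 Jmjd2a peaks of 1502 and 403 bp. Mir196b, which lies between Hoxa9 and Hoxa10, genes of the Hox A cluster that is highly expressed in MLL-rearranged leukaemia, was under a 1321 bp peak without Jmjd2a (chr6:52229881-52231201). That peak also covered the end of Hoxa10, but only 5 bp of that gene, at the border of the peak. Mir219a-1 and Mir219c, which overlap on opposite strands, lay upstream of the Polycomb gene Ring1, at -357 and -361 bp from its start, under a 1488 bp peak, and a 1179 bp Jmjd2a peak covered both. In all, 44 of the 70 whole microRNA genes were in a peak that overlapped Jmjd2a, and for 29 the Jmjd2a peak lay over the hairpin itself. Counted by peak over all whole small RNA genes, the overlap was 61.6% (45 of 73), close to the 58.6% of all Jmjd2c peaks.

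Of the 6 small nucleolar and Cajal body RNA genes, 5 lay inside a host gene on its strand, a median of 704 bp from its start. Among them were Snora7a in Rpl32, Snord45c in Rabggtb, Snora16a in Snhg12 and Snora26 in Dancr. The other, Scarna17, lay outside, at -788 bp from the start of Acaa2. Jmjd2a overlapped the peaks of 3 of the 6 and covered the RNA gene itself in 0 of them. Terc had a 994 bp peak (chr3:96414002-96414995) without Jmjd2a.

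Protein-coding genes with an end and a start under the same peak numbered 15. The widest peaks among them with Jmjd2a were at Naa38 (2840 bp) and the histone gene H2aw (2087 bp), and without it at Mrps34, a mitochondrial ribosome protein gene (2800 bp). The others include Mif, which encodes macrophage migration inhibitory factor, under a 1849 bp peak with a 339 bp Jmjd2a peak inside the gene. Jmjd2a overlapped 7 of the 15 peaks. In 7 of them another gene of the RefSeq table started under the same peak; the files also name a start of Hist3h2bb-ps at the H2aw peak. The 14 whole long noncoding genes were under 14 peaks, 1 of which is counted with the small RNAs. For 13 of the 14 the neighbouring protein-coding or other gene was on the opposite strand, as at Particl and Mat2a and at D330050I16Rik and Sart1, and 8 had a Jmjd2a peak over the gene.

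A start under a Jmjd2c peak came with an end under a peak with the token TES mainly in short genes. Of genes with a start under a Jmjd2c peak, the end also lay under such a peak for 95% of those up to 150 bp long (76 of 80) and for 51.2% of those of 151 to 1000 bp (22 of 43). The share was 5.71% at 1001 to 2000 bp (10 of 175), 1.03% at 2001 to 5000 bp, 1.66% at 5001 to 10000 bp and 0.48% above. Much of this fall is given by geometry, since a gene longer than its peak cannot lie wholly under it. All Jmjd2c peaks had a median width of 1302 bp. In the longer classes the end that is counted can lie under another peak than the start.

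**Figure D2:**
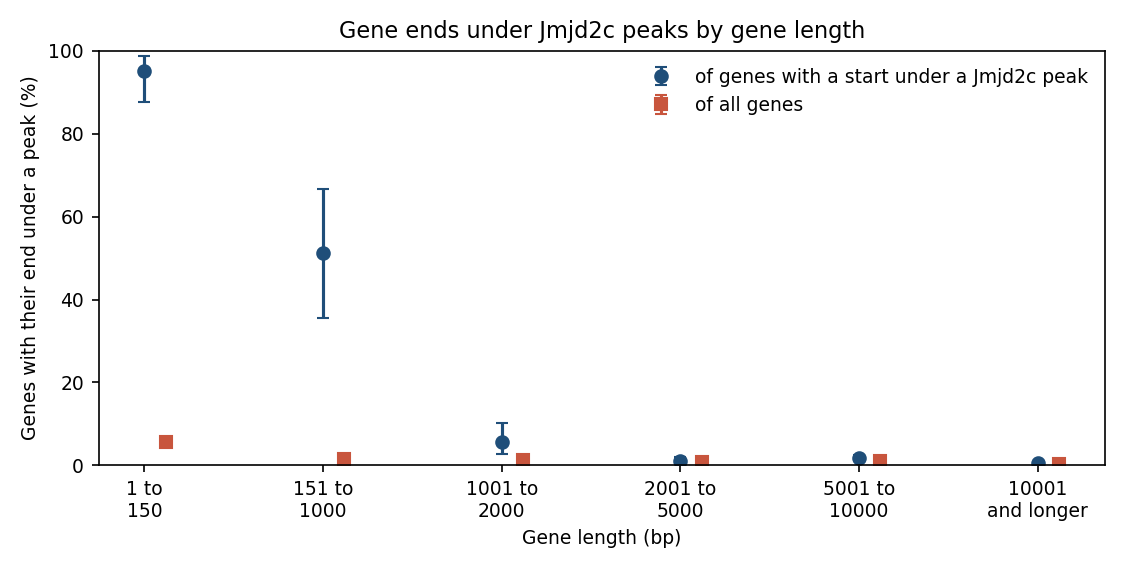
The y axis is the percentage of RefSeq genes with their end under a Jmjd2c peak that carries the token TES, the x axis gene length in bp; circles are genes with a start under a Jmjd2c peak, squares all genes, and bars exact 95% binomial intervals. The circles fall from 95% in genes up to 150 bp to 0.48% in genes longer than 10000 bp.

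Among all 26219 genes with a curated transcript, 232 had their end under a Jmjd2c peak with the token TES, which is 0.885%. A further 29 Jmjd2c peaks lie over an end of such a gene in the RefSeq table without carrying the token, and ends there are not counted. The share was 70 of 1180 microRNA genes with a Mir symbol (5.93%, 4.65 to 7.44), which leaves out the microRNA gene Gm38670, 6 of 125 small nucleolar and Cajal body RNA genes (4.80%, 1.78 to 10.2), 134 of 21031 protein-coding genes (0.64%) and 20 of 3319 long noncoding genes (0.60%). Over all these genes, 9403 had a start under a Jmjd2c peak (35.9%). MicroRNA genes had 71 of 1180 starts there (6.02%), and small nucleolar and Cajal body RNA genes 9 of 125 (7.2%), both below that share. Their median lengths are 81 and 87 bp, beside 14306 bp over all genes, so a start under a peak mostly brings the end with it. Zinc finger genes had 290 of 395 starts under a Jmjd2c peak and 2 ends, those of Zfp512b and Zfp329. Ribosomal protein genes had 40 of 98 starts and 0 ends (interval up to 3.69%). For the early response and stress genes these counts were 11 starts and 1 end of 30, the end being that of Gadd45g. For the regulators of blood and other lineages they were 13 starts and 1 end of 29, that of Hoxa10, reached by 5 bp at the border of its peak. Replication-dependent histone genes had 1 end of 66, H2aw, although their median length is 492.5 bp; 1 start of 66 was under a peak. The 4 genes of the KDM4 family itself each had a start and none had an end under a Jmjd2c peak.

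The 34 peaks over a gene end alone had a median width of 904 bp (791 to 1240), beside 1452 bp in all 235. They lay mostly on the gene side of the end: a median of 623 bp of the peak was before the end and 253 bp after it, and in 25 of 34 (73.5%, 55.6 to 87.1) the larger part was before it. Peaks that reach the start of a next gene are counted with the pairs, so the choice of this class limits the part after the end. No like share was computed for other peaks. In 11 of the 34 peaks over an end alone a start site lay within 1000 bp outside the peak. Jmjd2a overlapped 11 of the 34 (32.4%, 17.4 to 50.5), and in 7 of those 11 it covered the end.

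The widest was at Bad, a gene for a pro-apoptotic BH3-only protein (2572 bp, chr19:6950477-6953048), over exons, introns, coding sequence and the 3′ untranslated region, 7915 bp from the nearest start site and without Jmjd2a. Next came Cacna1a, a voltage-gated calcium channel gene (2239 bp, chr8:84638071-84640309), where 2181 bp lay before the end and 58 bp after it and the nearest start, that of Ier2, was 22543 bp away. Guca1a, a guanylate cyclase activator gene (1807 bp), also had no Jmjd2a. At Prr7 a 1174 bp Jmjd2a peak lay inside a 1792 bp Jmjd2c peak, wholly before the end. Znhit2, with a peak of 1452 bp, had its start 18 bp outside the peak, and the peak covered 1244 of the gene's 1262 bp. The peaks at Zfp329 (912 bp, 14697 bp from a start) and Shf (896 bp, 19342 bp) both had a Jmjd2a peak over the gene end. The end peaks at Gadd45g (697 bp) and the inhibitory receptor gene Lag3 (658 bp) had none. The Gadd45g peak lay 1355 bp from the start of its own gene.

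**Figure D3:**
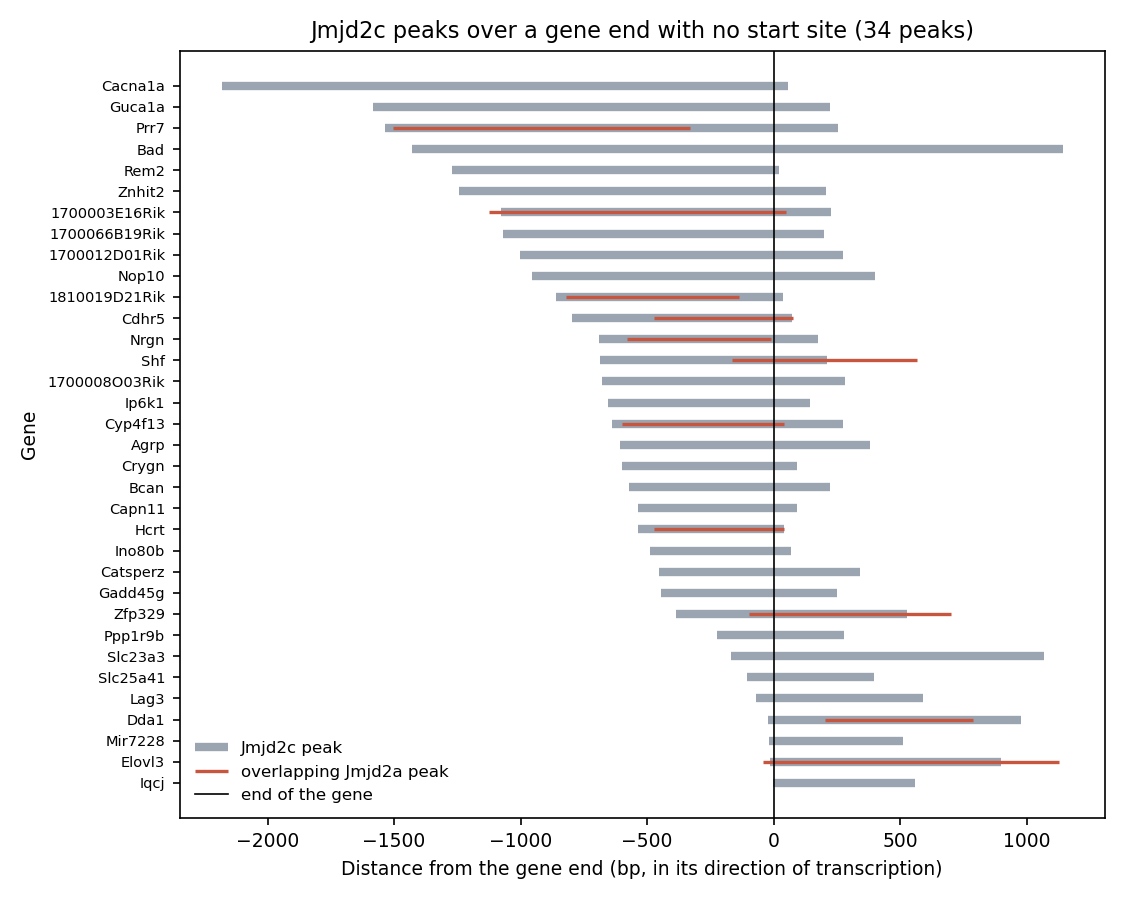
Each row is one of 34 Jmjd2c peaks that cover a gene end and no gene start. The x axis is the distance in bp from that end in the direction of transcription, grey bars are Jmjd2c peaks and red lines the 11 overlapping Jmjd2a peaks. The bars extend further to the left than to the right in 25 rows, and the red lines cross 0 in 7.

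Jmjd2a overlapped 55.7% of all transcript-end peaks (131 of 235, 49.1 to 62.2), beside 58.6% of all Jmjd2c peaks. With the TSS token it was 118 of 205 (57.6%, 50.5 to 64.4) beside 61.6% of the list, and without it 13 of 30 (43.3%, 25.5 to 62.6) beside 40.2%. All 3 shares lie close to the value over the list. By arrangement the share was 61.8% at pairs (55 of 89), 61.6% at small RNA genes (45 of 73), 46.7% at whole protein-coding genes and 69.2% at whole long noncoding genes (9 of 13). At gene ends alone it was 32.4%, with an interval wholly below 58.6%. Most of those peaks lack the TSS token and are narrow. The share was 40.2% in all Jmjd2c peaks without that token. In the narrow width class (up to 1073 bp) it was 31.8% in transcript-end peaks (14 of 44) and 43.0% in other peaks. The part of the token or of width in the 32.4% was not tested.

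**Figure D4:**
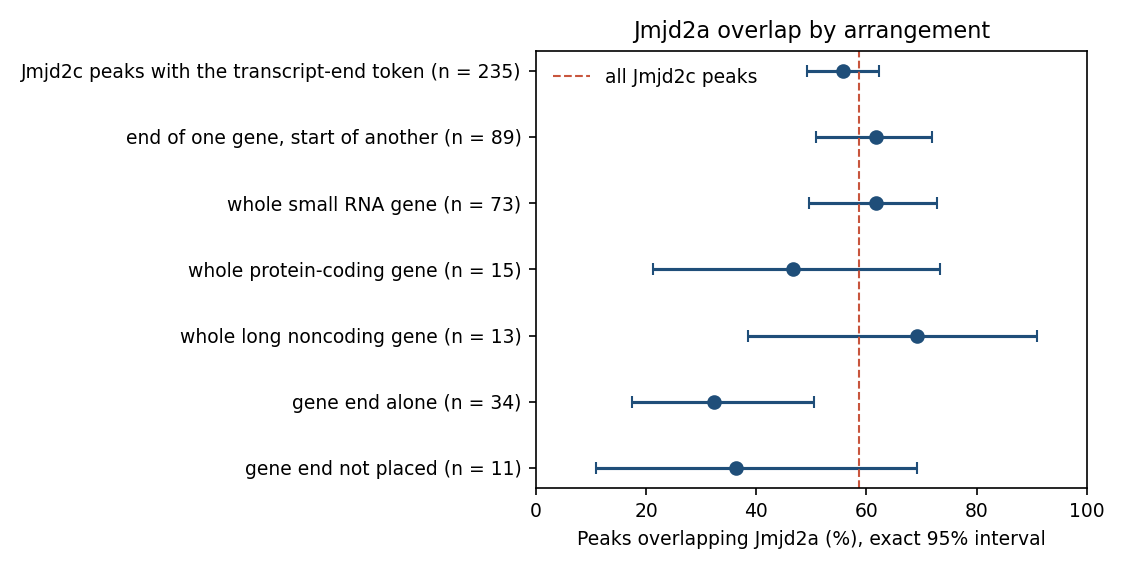
Points are the percentage of Jmjd2c peaks that overlap Jmjd2a in all 235 transcript-end peaks and in each arrangement, with exact 95% binomial intervals; the dashed line is the 58.6% of all Jmjd2c peaks. The interval for gene ends alone, 17.4 to 50.5%, lies left of the line. Most of those peaks lack the TSS token, and the share in all Jmjd2c peaks without it is 40.2%.

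Width moved with these shares. Transcript-end peaks had a median width of 1452 bp (1395 to 1542), beside 1298 bp in the other Jmjd2c peaks, and a wider peak takes in more annotated points. The token TES stood on 1.25% of the narrow Jmjd2c peaks, 2.51% of the middle class and 2.94% of the wide class, where the classes are of nearly equal size and end at 1073 and 1532 bp. Among peaks with the TSS token in the narrow class, Jmjd2a overlapped 5 of 25 transcript-end peaks (20.0%, 6.83 to 40.7) and 47.5% of 2472 others. In the middle class the shares were 67.1% (55 of 82) and 66.0%, and in the wide class 59.2% (58 of 98) and 68.4%. The part of width in the Jmjd2a shares was not tested beyond this split.

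**Figure D5:**
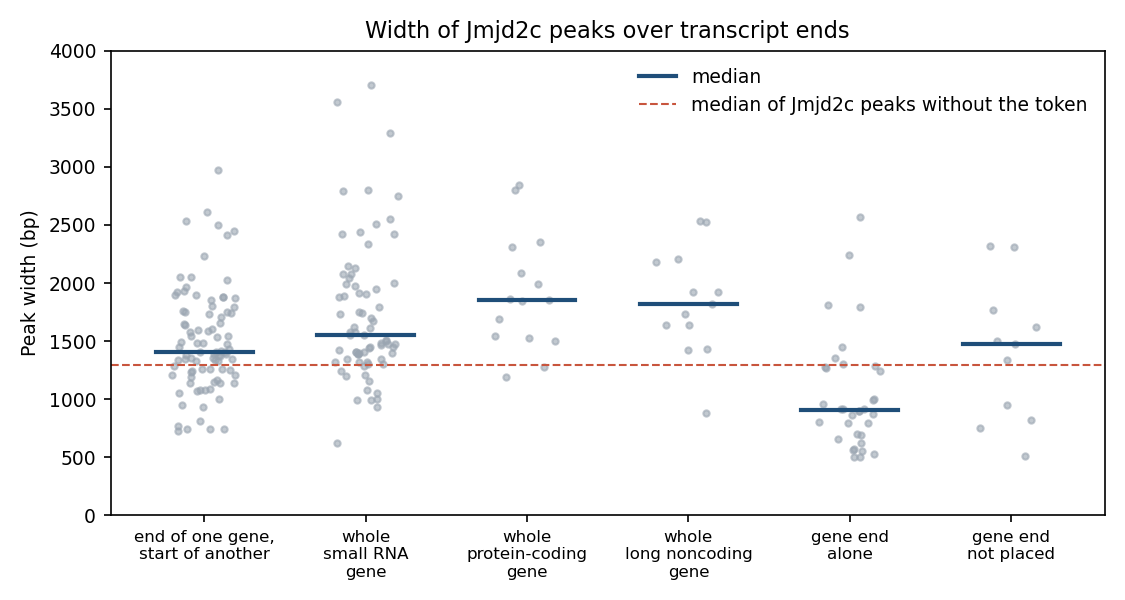
The y axis is the width in bp of each of the 235 peaks, by what the peak covers on the x axis; blue bars are medians and the dashed line is the median of 1298 bp in Jmjd2c peaks without the token. Peaks over gene ends alone have the lowest median, 904 bp, and those over whole protein-coding genes the highest, 1853 bp.

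Where both proteins were present, Jmjd2a took up a median of 52.7% of the transcript-end peak (quartiles 30.2 and 71.3), beside 63.9% in 6036 other shared Jmjd2c peaks. The percentage also depends on the width of the Jmjd2c peak, and all transcript-end peaks had a median of 1452 bp beside 1298 bp in the others. Jmjd2a peaks overlapping transcript-end peaks were 737.5 bp wide in the median, and no such width was computed for the other shared peaks. At least 2 Jmjd2a peaks lay under 9 of the 131 (6.87%), beside 7.85% of the others. The Jmjd2a list had the token TES on 91 of its own 8977 peaks (1.01%), and 62 of those 91 overlapped a Jmjd2c transcript-end peak. Seen from the Jmjd2c side, 61 of the 235 overlapped such a Jmjd2a peak. The authors' table of 6940 windows around start sites bound by both proteins overlapped 119 of the 235 (50.6%). For the overlaps with TES-token Jmjd2a peaks and with these windows, no share over all Jmjd2c peaks was computed. They cannot be called high or low.

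Chromosome 19 had 18 transcript-end peaks among 380 Jmjd2c peaks (4.74%, 2.83 to 7.38), the highest share, beside 2.23% of the whole list. It was followed by chromosome 14 with 13 of 350 (3.71%) and chromosome 17 with 18 of 539 (3.34%). Among the lowest were chromosome 1 with 5 of 579 (0.86%, 0.28 to 2.004) and the X chromosome with 2 of 312 (0.64%, 0.078 to 2.30). No test was made between chromosomes.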

How the data were processed

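Chromatin immunoprecipitation libraries were grouped by sample title. Bowtie 0.12.7, SAMtools, bedtools 2.25.0 and the build mm10 are named in the submitters' processing notes. The peak caller, its threshold, the libraries behind each list and any pooling: not given in the sources used here. The authors deposited peak positions in bp, the RefSeq features under each peak and the nearest start with its distance, per the file headers, and a table of co-bound windows. No column holds a score, count or value per library, so depth, and the precision it gives, are unknown.

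Positions were read as 0-based with an open end and are printed counting from 1. Of 677 RefSeq accessions named under the peaks, 673 matched a RefSeq gene table (GRCm38.p6). That table has no strand: strands of the 232 placed ends came from RefSeq sequence tables (192), the co-bound window table (20), the strand column of the peak lists (17) and deposited start sites (3). Gene ends were placed only for genes the files name under a peak with the token TES. Shares carry exact (Clopper-Pearson) 95% intervals, and medians order-statistic binomial intervals. No p-value was computed, since peaks are not replicates.

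The peaks described, the 8 gene lists and the alternatives were chosen with earlier results of these data known. Genes were named by width: the 4 widest peaks with and the 4 widest without Jmjd2a in each arrangement, the 5 widest over 10 kb from a start, 4 per gene list, 10 microRNA peaks and the 4 widest with 2 or more ends. Not all are printed, and other genes named were picked after their positions were seen. Alternatives changed the overlap rule, distance windows, end definition, width, chromosomes and gene class. The steps were tested on simulated peaks. Python 3.11.15, numpy 2.4.6, pandas 2.3.3, scipy 1.17.1 and matplotlib 3.10.9 were used.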

Additional observations from a re-analysis of the deposited data

How the results depend on the processing

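Of 29 alternative values, 20 stayed within the 95% interval of the value reported, or within 1.5 times a count, and 9 did not. Keeping the wider 50% of each list lowered the Jmjd2a overlap to 33.96% and raised the TSS share to 95.6%. That cut also removed the narrower Jmjd2a peaks, which by itself lowers the overlap. With all Jmjd2a peaks kept, the overlap was 58.3% in the wide class of transcript-end peaks (60 of 103). Without the TSS token the Jmjd2a overlap was 43.3% and the median width 915 bp. Taking a deposited distance of 0 in place of the TSS token gave 81.3%. A 5000 bp window gave 92.3% of peaks near a start site and 7.66% far from one. With protein-coding genes alone, whole genes fell to 15 peaks and unplaced ends rose to 101 peaks, since noncoding genes were left out. A gene end of the RefSeq table lay inside 314 Jmjd2c peaks, 225 of them with the token. For genes with a curated transcript, an alternative chosen after seeing the data, it was 254, of which 29 had no token, so counts of gene ends depend on the annotation. No paired analysis was possible because the peak lists carry no value per library. Depth and threshold of each list are unknown, and both limit which ends were called.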
